A study of Mus musculus with 2 samples.

Results

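The genes described here are Epyc, Lum, Mia, Dcn, Spp1, Fn1, Tnc, Coch and Clu, 9 of the 33696 genes in the files, all encoding secreted proteins of the extracellular matrix or the extracellular fluid. They were picked by symbol, with their levels in these nuclei already known from earlier work on the same data, so their levels by cell class and between libraries are a description and carry no test. Single-nucleus RNA sequencing reads the RNA of isolated nuclei in droplets and counts unique molecular identifiers (UMIs), which mark single captured molecules. The Serpine2 cOE (cOE) library came from 20 pooled cochleae with the genotype Lgr5EGFP-CreER/+,Serpine2loxp/loxp, and the control library from 19 pooled cochleae of Serpine2loxp/loxp mice without the driver allele. All mice received tamoxifen at postnatal day 1 and were taken at day 7, and the labels give the tissue as basement membranes of the cochlea and its cells as hair and supporting cells. Lgr5, whose promoter drives the CreER, marks supporting cells of the organ of Corti, and Serpine2 encodes a secreted serine protease inhibitor, protease nexin 1. Each group was 1 library of pooled animals, so no difference has a replicate check, and effects of the Lgr5 driver and of Serpine2 recombination cannot be told apart. The labels name loxP sites at Serpine2, and the sources used here do not give what recombination there makes.

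Small leucine-rich proteoglycans such as decorin (Dcn), lumican (Lum) and epiphycan (Epyc) bind collagen fibrils and set their thickness and spacing. Fibronectin (Fn1) and tenascin-C (Tnc) are large multidomain glycoproteins that cells contact through integrins, and tenascin-C is abundant in developing and remodelling tissue. Cochlin (Coch) is a major secreted protein of the fibrocytes of the inner ear and is mutated in a human form of hereditary deafness. Osteopontin (Spp1) is an acidic integrin-binding protein best known from bone, Mia is a small secreted protein made by cartilage and melanoma cells, and clusterin (Clu) is an extracellular chaperone.

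Gene positions are given in GRCm39 from GENCODE release M39. Dcn (ENSMUSG00000019929, chr10:97315275-97358155), Lum (ENSMUSG00000036446, chr10:97400990-97408577) and Epyc (ENSMUSG00000019936, chr10:97479853-97518316) lie on the plus strand of chromosome 10. With Kera, the gene for keratocan, they are 4 consecutive protein-coding genes within 203 kb. Kera itself had 0 UMIs in all kept Serpine2 cOE nuclei and 2 UMIs in all kept control nuclei. The other members lie apart, Mia (ENSMUSG00000089661) at chr7:26879166-26880582, Fn1 (ENSMUSG00000026193) at chr1:71624673-71692419 and Tnc (ENSMUSG00000028364) at chr4:63878014-63965443, all on the minus strand. Spp1 (ENSMUSG00000029304) at chr5:104582165-104589235, Coch (ENSMUSG00000020953) at chr12:51639894-51653316 and Clu (ENSMUSG00000022037) at chr14:66190200-66218999 are on the plus strand.

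Promoters of Epyc, Tnc, Coch and Mia are shown because Epyc, Tnc and Coch had the clearest class patterns of the members with an entry, while Mia had nearly none. The sequences are from RefSeq in GRCm38.p6, an earlier build than that of the gene positions above, and run 300 bases from 250 before to 50 after a start, on the gene's strand. Epyc is shown at chr10:97646853-97647152 on the plus strand, Tnc at chr4:64046966-64047265 on the minus strand, Coch at chr12:51593091-51593390 on the plus strand and Mia at chr7:27181100-27181399 on the minus strand. Capitals mark matches on either strand to the TATA box letters TATAAA, the AP-1 motif TGANTCA, the Sox core CTTTGT and the GC box letters GGGCGG.
Epyc: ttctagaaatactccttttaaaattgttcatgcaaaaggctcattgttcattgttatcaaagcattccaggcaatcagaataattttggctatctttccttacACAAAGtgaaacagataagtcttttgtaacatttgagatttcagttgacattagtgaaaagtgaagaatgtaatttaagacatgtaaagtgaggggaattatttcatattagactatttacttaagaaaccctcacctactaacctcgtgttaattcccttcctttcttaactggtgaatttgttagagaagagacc
Tnc: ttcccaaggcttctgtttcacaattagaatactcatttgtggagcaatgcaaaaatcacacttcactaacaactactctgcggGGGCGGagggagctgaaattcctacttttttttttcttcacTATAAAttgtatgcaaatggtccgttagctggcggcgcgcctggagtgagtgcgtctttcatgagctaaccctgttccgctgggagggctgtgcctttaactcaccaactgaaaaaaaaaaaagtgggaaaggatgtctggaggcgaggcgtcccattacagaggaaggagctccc
Coch: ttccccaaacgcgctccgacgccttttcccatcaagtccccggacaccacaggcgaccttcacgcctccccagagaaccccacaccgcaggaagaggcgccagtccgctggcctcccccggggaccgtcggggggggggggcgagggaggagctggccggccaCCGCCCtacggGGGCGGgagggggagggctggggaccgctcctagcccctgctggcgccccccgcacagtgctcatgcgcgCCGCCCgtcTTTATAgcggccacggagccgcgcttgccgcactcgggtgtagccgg
Mia: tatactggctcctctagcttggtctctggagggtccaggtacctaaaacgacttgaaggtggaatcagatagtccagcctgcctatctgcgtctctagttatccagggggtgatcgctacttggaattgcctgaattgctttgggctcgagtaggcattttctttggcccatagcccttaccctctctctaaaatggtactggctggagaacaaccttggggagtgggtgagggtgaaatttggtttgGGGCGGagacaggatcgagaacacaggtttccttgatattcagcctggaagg
The Epyc window held the Sox core, on the minus strand and 147 bases before the start, and its G and C content was 32.3%. The Tnc window held TATAAA 126 bases and GGGCGG 167 bases before the start. Coch had 3 matches to GGGCGG, 87, 76 and 6 bases before the start, and 1 to TATAAA on the minus strand at position 4, counting the start as 1, with 73.7% G and C. Mia had 1 match to GGGCGG, 2 bases before the start. Of 32851 mouse promoters of the same length, 13.6% held TATAAA, 7.81% TGANTCA, 18.7% CTTTGT and 35.7% GGGCGG. A match describes these letters only, and says nothing of whether a factor binds. Spp1 and a further start each of Epyc and Tnc also had entries, while Lum, Dcn, Fn1 and Clu are named only. The further Epyc window, at chr10:97643818-97644117, held no match to any of these motifs, the Sox core included. That of Tnc held TATAAA and GGGCGG.

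The Serpine2 cOE library had 12014 barcodes with 40429121 UMIs and the control library 9820 barcodes with 31158971 UMIs. After filtering, 9777 Serpine2 cOE nuclei (median 2401 UMIs) and 8250 control nuclei (median 2247 UMIs) were kept, and the libraries shared 27 barcodes, 15 of them among kept nuclei. Levels are UMIs of a gene per 1000000 UMIs of the class and library (CPM). The level of Serpine2 itself was 86.0 CPM over kept Serpine2 cOE nuclei and 88.9 CPM over kept control nuclei. Pillar and Deiters cell-like nuclei, the class that carries Lgr5, held Serpine2 at 234 CPM in Serpine2 cOE, with a 95% interval from 202 to 270, against 190 CPM in control, with one from 154 to 232. All intervals are exact Poisson intervals of the counts, or exact binomial ones for shares of nuclei, and cover counting error only.

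Nuclei were assigned to classes by marker genes that exclude the 9 members. The 6 epithelial classes were hair cell-like (375 Serpine2 cOE and 295 control nuclei), pillar and Deiters cell-like (128 cOE, 85 control), Koelliker organ-like (536 cOE, 289 control), Otoa and Rspo2 nuclei (186 cOE, 60 control), lateral epithelium-like (257 cOE, 173 control) and roof epithelium-like (610 cOE, 359 control). Otoa and Rspo2 mark interdental cells, which secrete the tectorial membrane, but the third listed marker, Ceacam16, had only 10 UMIs in Serpine2 cOE and 0 in control, so these nuclei are called by their genes. The 5 mesenchymal classes were likewise called by their genes: Notum and Nkd1 (700 cOE, 488 control), Col6a6 and Aldh1a2 (271 cOE, 273 control), Opcml and Moxd1 (245 cOE, 322 control), Gas2l3, Tnfaip6 and Ano4 (582 cOE, 489 control), and Runx2, Dio2 and Ibsp (135 cOE, 65 control). Macrophage-like nuclei (119 cOE, 169 control) were taken to lack most of these genes, which was not tested for any single member. They were not alike in the libraries, as their own marker list summed to 4330 CPM in Serpine2 cOE and 2241 CPM in control. The hair cell list summed there to 750 CPM in Serpine2 cOE and 1137 CPM in control. For the Koelliker organ list it was 1758 CPM in Serpine2 cOE and 1528 CPM in control. A further 52.3% of kept Serpine2 cOE nuclei and 59.1% of kept control nuclei met no gate. The summed level of Otoa, Rspo2 and Ceacam16 was 1633 CPM in its own class in Serpine2 cOE and 2162 CPM in control, and in the other classes at most 189 CPM in Serpine2 cOE and 193 CPM in control.

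Epyc was highest in Otoa and Rspo2 nuclei, with 926 CPM (867 to 988; 913 UMIs) in Serpine2 cOE and 750 CPM (655 to 855; 222 UMIs) in control. Lateral epithelium-like nuclei followed with 607 CPM in Serpine2 cOE and 500 CPM in control. Koelliker organ-like nuclei had 288 CPM in Serpine2 cOE and 209 CPM in control. Lateral epithelium here means the Bmp4- and Hmga2-expressing cells outside the organ of Corti. These 3 classes kept the same order in both libraries, and their intervals did not overlap within a library. Every other epithelial class, and every mesenchymal class, lay between 87.6 and 176 CPM in Serpine2 cOE and between 59.7 and 186 CPM in control. Within that group the order differed between libraries, and 28 of the 71 Epyc UMIs of the control Runx2, Dio2 and Ibsp nuclei came from 1 nucleus. The highest class stood 10.6 times above the lowest in Serpine2 cOE and 12.6 times in control.

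Free RNA in droplets gives some UMIs of an abundant gene to every nucleus, so levels were set beside macrophage-like nuclei. Epyc there was 282 CPM in Serpine2 cOE and 139 CPM in control, as high as in Koelliker organ-like nuclei of Serpine2 cOE (interval 231 to 342 against 266 to 311). After each nucleus had been thinned to 1000 UMIs, 48.4% of Otoa and Rspo2 nuclei (41.0% to 55.8%) in Serpine2 cOE and 41.7% (29.1% to 55.1%) in control had an Epyc UMI. In macrophage-like nuclei these shares were 19.5% (12.6% to 28.0%) in Serpine2 cOE and 6.45% (3.14% to 11.5%) in control. Without thinning, the Epyc share of Otoa and Rspo2 nuclei was 72.0% in Serpine2 cOE (median depth 3108.5 UMIs) and 63.3% in control (3077.5 UMIs). That of macrophage-like nuclei was 28.6% in Serpine2 cOE (1790 UMIs) and 21.9% in control (1733 UMIs). Thinning left out 0 Otoa and Rspo2 nuclei of either library, and 6 macrophage-like nuclei of Serpine2 cOE and 14 of control.

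The gates missed the nuclei richest in Epyc. Clusters made without the 9 members held 1 unnamed cluster, of 272 Serpine2 cOE and 123 control nuclei, in which Epyc reached 2064 CPM in Serpine2 cOE (1702 UMIs) and 1579 CPM in control (662 UMIs). Its leading genes by fold over the other nuclei were Kcnq5, Gm36975, Epyc and Cdh4, and 87.5% of its Serpine2 cOE and 83.7% of its control nuclei had met no gate. The summed level of the Koelliker organ list was 2753 CPM there in Serpine2 cOE and 2982 CPM in control, and that of Otoa, Rspo2 and Ceacam16 was 98.2 CPM in Serpine2 cOE and 78.7 CPM in control. Lum was also high in that cluster, at 497 CPM in Serpine2 cOE and 262 CPM in control. The cluster that matched the Otoa and Rspo2 markers held 285 Serpine2 cOE and 76 control nuclei, with Epyc at 1219 CPM in Serpine2 cOE and 1187 CPM in control.

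**Figure D1:**
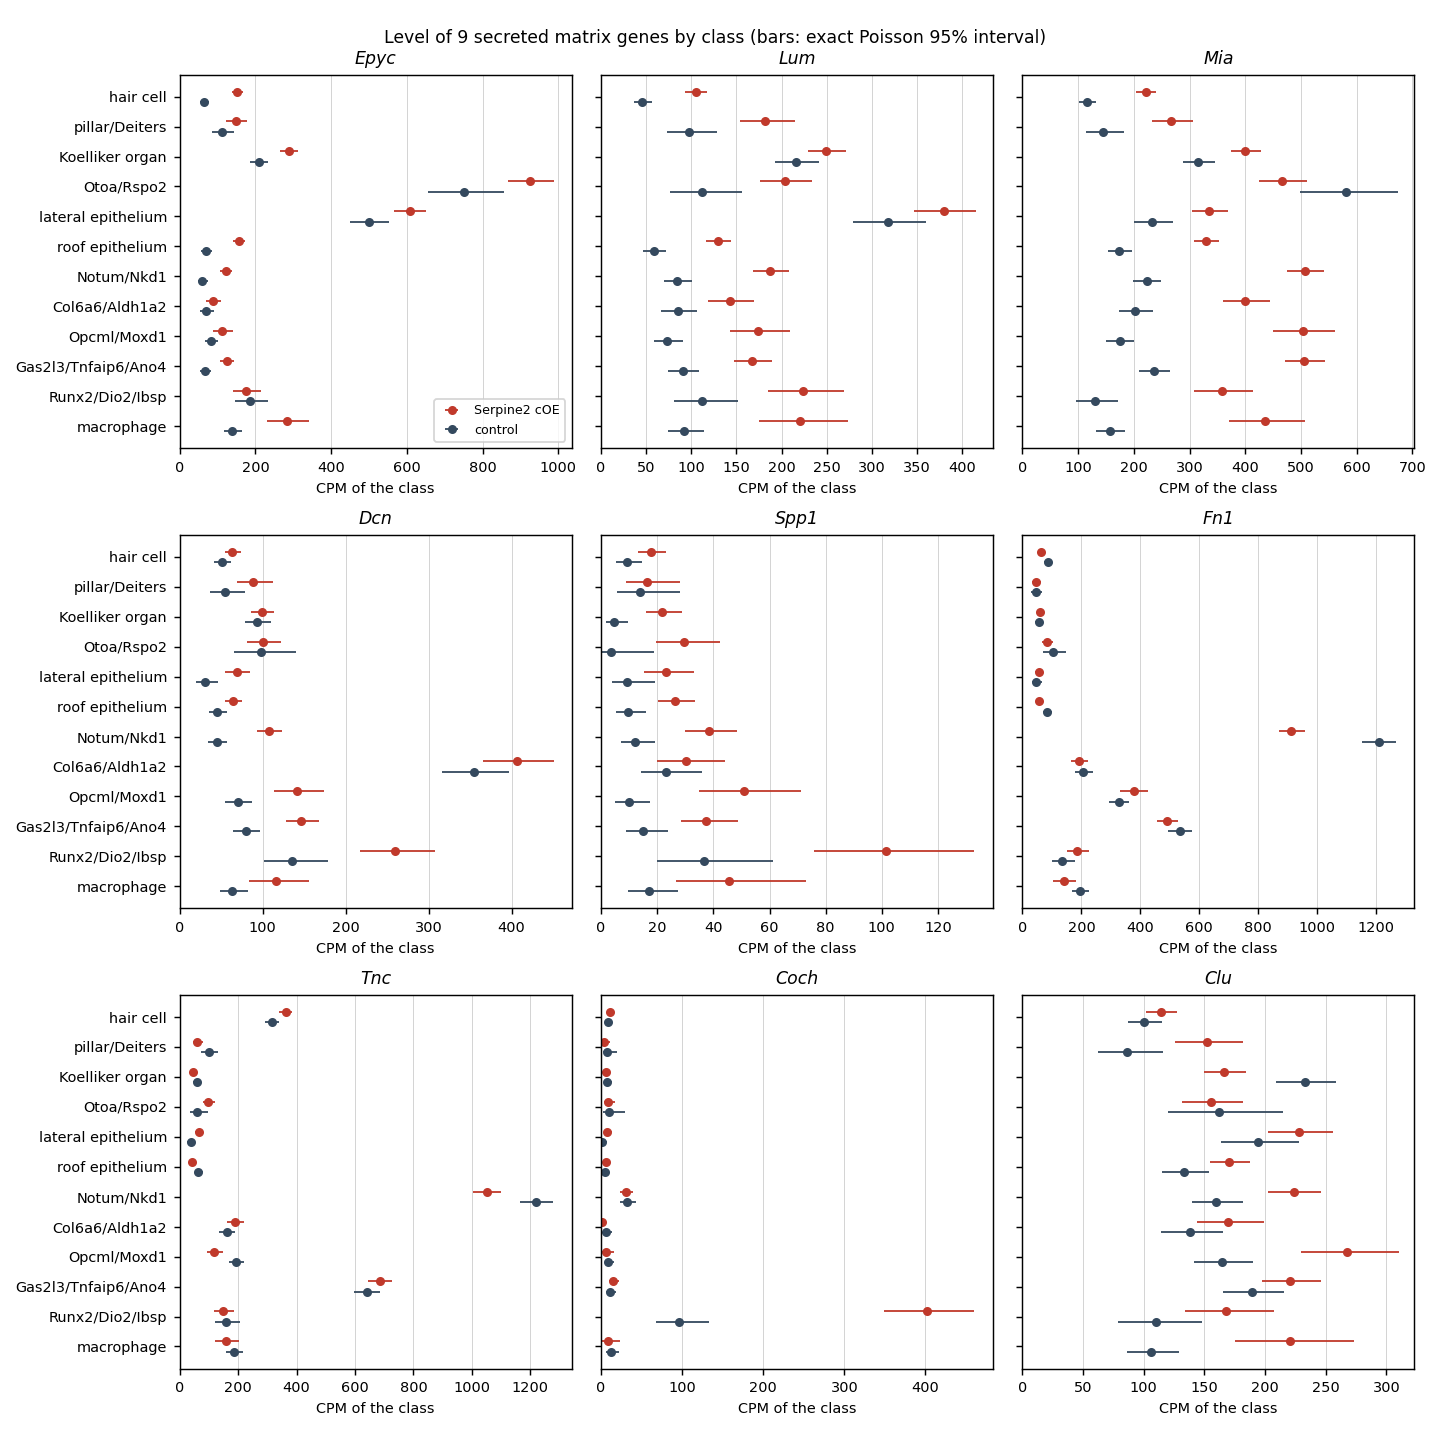
Level of each of the 9 genes in the 12 classes, in CPM, with exact Poisson 95% intervals; red is Serpine2 cOE and blue is control. Epyc peaks in Otoa and Rspo2 nuclei (926 CPM in cOE, 750 in control), Fn1 in Notum and Nkd1 nuclei (913 in cOE, 1210 in control) and Coch in Runx2, Dio2 and Ibsp nuclei (402 in cOE, 96.7 in control), while the Clu levels of a library stay within 114 to 268 CPM in cOE and 86.1 to 233 CPM in control.

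Lum had its highest class level in lateral epithelium-like nuclei, at 380 CPM (347 to 416; 480 UMIs) in Serpine2 cOE and 318 CPM (279 to 361; 239 UMIs) in control. Koelliker organ-like nuclei came next with 250 CPM in Serpine2 cOE and 216 CPM in control. Hair cell-like nuclei were lowest, at 105 CPM in Serpine2 cOE and 45.8 CPM in control, and the highest class was 3.62 times the lowest in Serpine2 cOE and 6.94 times in control. The macrophage-like level was 220 CPM in Serpine2 cOE and 92.1 CPM in control, so that in Serpine2 cOE it overlapped Koelliker organ-like nuclei in its interval (175 to 274 against 229 to 271). After thinning, a Lum UMI was found in 33.6% of lateral epithelium-like nuclei in Serpine2 cOE and 26.7% in control. In macrophage-like nuclei the shares were 20.4% in Serpine2 cOE and 7.10% in control.

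Dcn was highest in Col6a6 and Aldh1a2 nuclei, with 407 CPM (366 to 451; 362 UMIs) in Serpine2 cOE and 354 CPM (316 to 396; 305 UMIs) in control. Runx2, Dio2 and Ibsp nuclei followed at 259 CPM in Serpine2 cOE and 136 CPM in control, and the intervals of these 2 classes did not overlap in either library. Thinned shares of Col6a6 and Aldh1a2 nuclei with a Dcn UMI were nearly equal, 27.8% in Serpine2 cOE and 27.9% in control. In macrophage-like nuclei they were 12.4% in Serpine2 cOE and 5.16% in control. Epithelial classes lay at 63.4 to 100 CPM in Serpine2 cOE and 30.6 to 98.0 CPM in control. The 3 neighbouring genes of chromosome 10 thus had their highest gated levels in 3 different classes.

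Fn1 was highest in 3 of the 5 mesenchymal classes. In Notum and Nkd1 nuclei it reached 913 CPM (870 to 958; 1662 UMIs) in Serpine2 cOE and 1210 CPM (1154 to 1269; 1722 UMIs) in control. Gas2l3, Tnfaip6 and Ano4 nuclei had 492 CPM in Serpine2 cOE and 533 CPM in control, and Opcml and Moxd1 nuclei had 377 CPM in Serpine2 cOE and 328 CPM in control. Col6a6 and Aldh1a2 nuclei (192 CPM in Serpine2 cOE, 207 CPM in control) and Runx2, Dio2 and Ibsp nuclei (185 CPM in Serpine2 cOE, 136 CPM in control) lay near macrophage-like nuclei, which had 140 CPM in Serpine2 cOE and 195 CPM in control. Epithelial classes lay between 45.5 and 82.1 CPM in Serpine2 cOE and between 45.0 and 105 CPM in control. The highest class stood 20.1 times above the lowest in Serpine2 cOE and 26.9 times in control. After thinning, 58.3% of Notum and Nkd1 nuclei (54.5% to 62.0%) in Serpine2 cOE and 64.9% (60.4% to 69.1%) in control had an Fn1 UMI. The shares were 3.01% in Serpine2 cOE and 8.24% in control for hair cell-like nuclei, and 9.73% in Serpine2 cOE and 14.8% in control for macrophage-like nuclei.

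Tnc shared that top class. Notum and Nkd1 nuclei had 1051 CPM (1004 to 1099; 1912 UMIs) in Serpine2 cOE and 1220 CPM (1163 to 1279; 1736 UMIs) in control, and Gas2l3, Tnfaip6 and Ano4 nuclei had 685 CPM in Serpine2 cOE and 640 CPM in control. Unlike Fn1, Tnc was also present in hair cell-like nuclei, at 362 CPM (341 to 385; 1029 UMIs) in Serpine2 cOE and 316 CPM (291 to 342; 621 UMIs) in control, while the other epithelial classes lay between 40.7 and 98.4 CPM in Serpine2 cOE and between 37.2 and 99.8 CPM in control. Thinned shares of hair cell-like nuclei with a Tnc UMI were 29.0% in Serpine2 cOE and 20.2% in control, and those of macrophage-like nuclei 10.6% in Serpine2 cOE and 7.74% in control. Clusters made without the members also held Tnc in hair cells. The largest hair cell-like cluster (410 cOE and 357 control nuclei) had Tnc at 266 CPM in Serpine2 cOE and 256 CPM in control. The highest cluster was an unnamed one of 874 cOE and 708 control nuclei led by 8030451A03Rik, Qrfprl, Tnc and Epha3, with Tnc at 1367 CPM in Serpine2 cOE and 1536 CPM in control.

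For 67.4 kb, Tnc overlaps the long non-coding RNA 8030451A03Rik, which runs on the opposite strand (chr4:63898091-64068161). That gene was at 1463 CPM in Serpine2 cOE and 1839 CPM in control in Notum and Nkd1 nuclei. It was at 606 CPM in Serpine2 cOE and 615 CPM in control in hair cell-like nuclei, and at 43.1 CPM in Serpine2 cOE and 72.3 CPM in control in Koelliker organ-like nuclei. The files count the 2 genes separately, but whether the counting used the strand is not given in the sources used here. It therefore cannot be said whether molecules of the overlap went to the right gene. The Tnc levels in every class, hair cell-like nuclei included, are uncertain to that extent. The clustering left out Tnc but not 8030451A03Rik, so the clusters give no separate check of the Tnc levels. Fn1, Epyc and Clu also overlap genes on the other strand. The overlap is 2.29 kb for Fn1 with Apol7d, which was at most 16.9 CPM in any class of Serpine2 cOE and 14.2 CPM in control, and 1.20 kb for Clu with Scara3, at most 262 CPM in Serpine2 cOE and 248 CPM in control. Epyc shares 1.37 kb with Gm10754, which stood at 19.3 CPM in the Otoa and Rspo2 nuclei of Serpine2 cOE and 64.2 CPM in those of control.

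Coch had the narrowest pattern. Runx2, Dio2 and Ibsp nuclei, whose genes belong to the bone lineage apart from Dio2, a thyroid hormone deiodinase, had 402 CPM (349 to 460; 206 UMIs) in Serpine2 cOE and 96.7 CPM (68.1 to 133; 37 UMIs) in control. Notum and Nkd1 nuclei came next at 30.8 CPM in Serpine2 cOE and 32.3 CPM in control, and the other classes had at most 14.7 CPM in Serpine2 cOE and 12.7 CPM in control. Macrophage-like nuclei had 8.06 CPM (3 UMIs) in Serpine2 cOE and 12.7 CPM (12 UMIs) in control. A Coch UMI was found in 48.9% of the Runx2, Dio2 and Ibsp nuclei of Serpine2 cOE and 29.2% of those of control, at median depths of 2830 UMIs in Serpine2 cOE and 3514 UMIs in control. After thinning the shares were 25.4% (18.3% to 33.6%) in Serpine2 cOE and 12.3% (5.47% to 22.8%) in control, and those of macrophage-like nuclei 0.885% in Serpine2 cOE and 0.645% in control. The richest nucleus held 20 of the 206 UMIs in Serpine2 cOE and 5 of the 37 in control. The class is mixed, so it was split by its markers after its values had been seen. Nuclei with both Dio2 and Ibsp UMIs had 512 CPM (66 nuclei) in Serpine2 cOE and 89.7 CPM (26 nuclei) in control, those with Ibsp alone 361 CPM (38 nuclei) in Serpine2 cOE and 84.1 CPM (13 nuclei) in control, and those with Dio2 alone 226 CPM (28 nuclei) in Serpine2 cOE and 117 CPM (23 nuclei) in control. In that order, the control values rest on 20, 4 and 12 Coch UMIs. With Dio2 alone the intervals overlapped, at 143 to 338 CPM in Serpine2 cOE and 60.7 to 205 CPM in control. The summed osteoblast and chondrocyte list was 3890 CPM in this class in Serpine2 cOE and 2307 CPM in control, so the makeup of the class moved with Coch, and its part in the result was not tested. The corresponding cluster, of 457 cOE and 336 control nuclei, had Coch at 246 CPM in Serpine2 cOE and 99.9 CPM in control.

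Spp1 was sparse in most gated classes. Over all depths it was highest in Runx2, Dio2 and Ibsp nuclei, with 101 CPM in Serpine2 cOE and 36.6 CPM in control. These values rest on 52 UMIs in Serpine2 cOE, 32 of them from 1 nucleus. In control they rest on 14 UMIs, 5 of them from 1 nucleus. Macrophage-like nuclei had 45.7 CPM (17 UMIs) in Serpine2 cOE and 16.9 CPM (16 UMIs) in control. The other classes lay between 16.4 and 50.8 CPM in Serpine2 cOE and between 3.38 and 23.2 CPM in control. In nuclei of 1500 to 5000 UMIs the order changed, and macrophage-like nuclei led these classes in both libraries. They had 67.8 CPM in Serpine2 cOE and 39.7 CPM in control. Runx2, Dio2 and Ibsp nuclei of that depth had 54.3 CPM in Serpine2 cOE and 29.3 CPM in control. The highest Spp1 level was outside these classes, in neuron-like nuclei, of which there were only 39 in Serpine2 cOE and 14 in control. They had 363 CPM (303 to 433; 126 UMIs) in Serpine2 cOE and 378 CPM (259 to 534; 32 UMIs) in control. An Spp1 UMI was found in 84.6% of them in Serpine2 cOE (median depth 7469 UMIs) and 64.3% in control (5388 UMIs), and in 13.4% of macrophage-like nuclei in Serpine2 cOE (1790 UMIs) and 8.88% in control (1733 UMIs).

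Mia and Clu separated the classes least. Mia was at 221 to 507 CPM in the classes of Serpine2 cOE and 116 to 581 CPM in those of control, with hair cell-like nuclei lowest in both libraries. Its highest value, 581 CPM in the Otoa and Rspo2 nuclei of control, rests on 172 UMIs, of which 102 came from 1 nucleus. After thinning, 39.8% of Otoa and Rspo2 nuclei in Serpine2 cOE and 26.7% in control had a Mia UMI. In macrophage-like nuclei the shares were 40.7% in Serpine2 cOE and 23.2% in control, and in all kept nuclei 40.5% in Serpine2 cOE and 23.0% in control. The gated Otoa and Rspo2 nuclei thus had shares close to those of macrophage-like nuclei and of all kept nuclei, whereas the cluster with the same markers had Mia at 902 CPM in Serpine2 cOE and 805 CPM in control, against 669 CPM in Serpine2 cOE and 293 CPM in control in the macrophage-like cluster. Clu lay between 114 and 268 CPM in Serpine2 cOE and between 86.1 and 233 CPM in control, with Opcml and Moxd1 nuclei highest in Serpine2 cOE at 268 CPM and Koelliker organ-like nuclei highest in control at 233 CPM. In Koelliker organ-like nuclei of control, 55 of the 348 UMIs came from 1 nucleus. Macrophage-like nuclei had Clu at 220 CPM in Serpine2 cOE and 106 CPM in control.

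**Figure D2:**
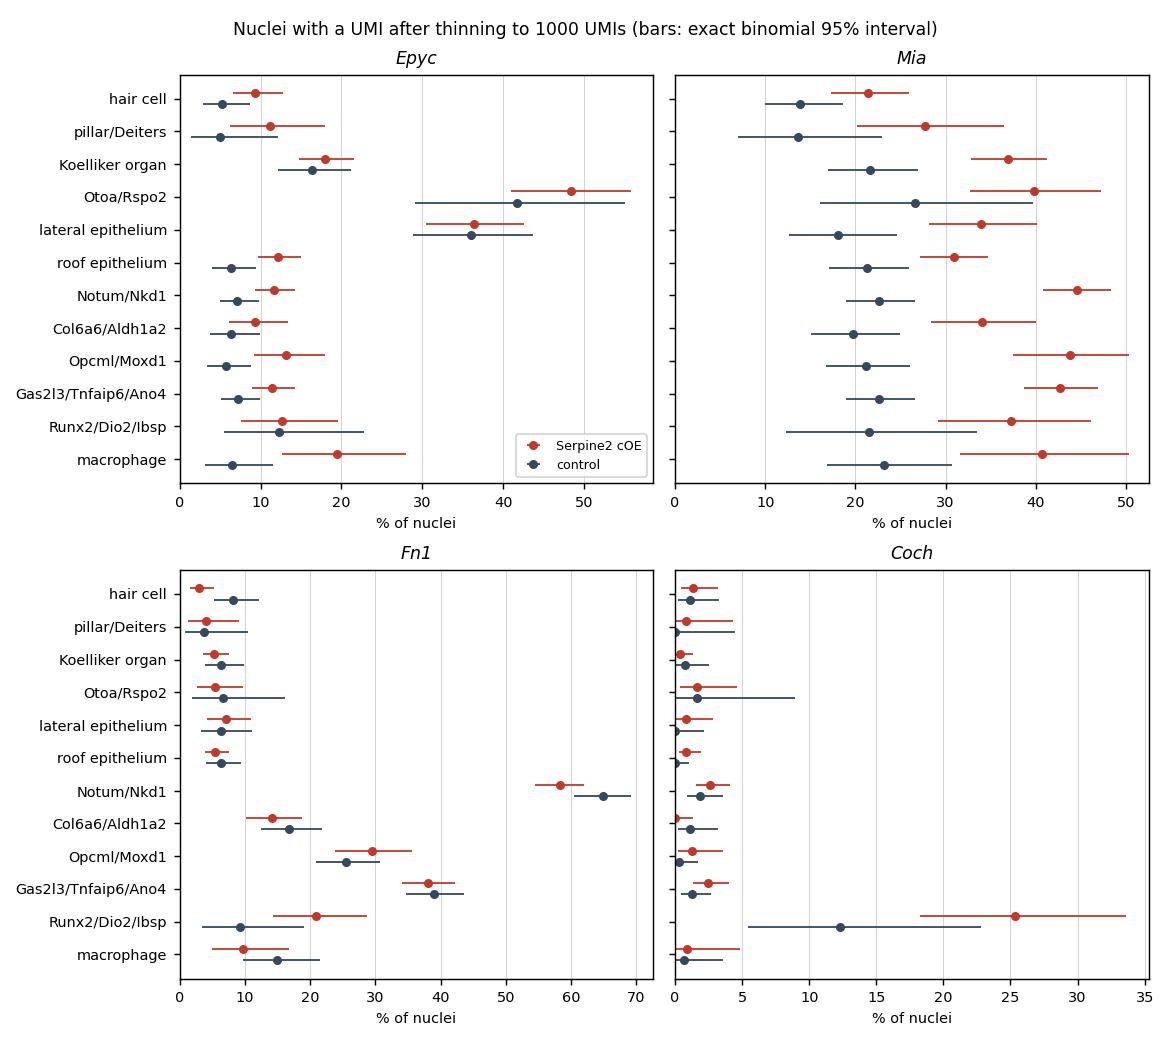
Percent of nuclei with at least 1 UMI of Epyc, Mia, Fn1 or Coch after each nucleus was thinned to 1000 UMIs, by class, with exact binomial 95% intervals; red is Serpine2 cOE and blue is control. Epyc, Fn1 and Coch single out a few classes, with Epyc in 48.4% of Otoa and Rspo2 nuclei in cOE and 41.7% in control, whereas Mia is found in 40.7% of macrophage-like nuclei in cOE and 23.2% in control, near its share of all kept nuclei (40.5% in cOE, 23.0% in control).

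The dependence on depth set the members apart from each other. Over all deposited barcodes, Mia stood at 2288 CPM in barcodes of under 1000 UMIs and 191 CPM in barcodes of 8000 UMIs or more in Serpine2 cOE, a 12.0-fold decline, and at 1257 and 123 CPM, a 10.3-fold decline, in control. In Serpine2 cOE the same fold was 9.74 for Clu, 9.37 for Spp1, 7.43 for Lum, 5.11 for Dcn, 3.00 for Fn1, 2.52 for Coch, 1.99 for Epyc and 1.15 for Tnc. In control it was 8.17 for Clu, 6.09 for Spp1, 5.71 for Lum, 3.57 for Dcn, 1.91 for Fn1, 1.37 for Coch, 2.15 for Epyc and 1.11 for Tnc. Haemoglobin genes, which belong to red blood cells, had a fold of 11.6 in Serpine2 cOE and 4.75 in control, and mitochondrial genes, whose transcripts nuclei should lack, 9.21 in Serpine2 cOE and 6.37 in control. The number of Mia molecules per barcode changed little over the lower 3 depth bins, at 1.46, 1.30 and 1.39 UMIs in Serpine2 cOE and 0.863, 0.683 and 0.667 UMIs in control, while Tnc per barcode was 0.142 UMIs in the shallowest and 3.07 in the deepest bin of Serpine2 cOE, and 0.180 and 4.02 UMIs in those of control. In Serpine2 cOE, the folds of Clu and Spp1 lay between those of mitochondrial and haemoglobin RNA, that of Mia above both and those of the other 6 members below both. In control, the folds of Lum and Spp1 lay between them, those of Mia and Clu above both and those of Dcn, Fn1, Coch, Epyc and Tnc below both. The part of free RNA in the class levels was not tested beyond these comparisons.

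Among the clusters, Mia was highest in 2 unnamed ones of low depth in Serpine2 cOE, and in the cluster with Otoa and Rspo2 markers in control. In an unnamed cluster of 608 Serpine2 cOE and 499 control nuclei with a median of 1241 UMIs, led by Igfbp2, Mdk, Apoe and Vim, Mia was at 1284 CPM in Serpine2 cOE and 712 CPM in control. Clu was at 758 CPM in Serpine2 cOE and 647 CPM in control there, Dcn at 661 CPM in Serpine2 cOE and 362 CPM in control, and Lum at 570 CPM in Serpine2 cOE and 370 CPM in control. In another unnamed one, of 83 cOE and 765 control nuclei with a median of 866 UMIs, Mia was at 1021 CPM in Serpine2 cOE and 587 CPM in control. The cluster with Otoa and Rspo2 markers, with a median of 2343 UMIs, had Mia at 902 CPM in Serpine2 cOE and 805 CPM in control, a log2 level of 1.38 (1.28 to 1.48) over the other nuclei.

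**Figure D3:**
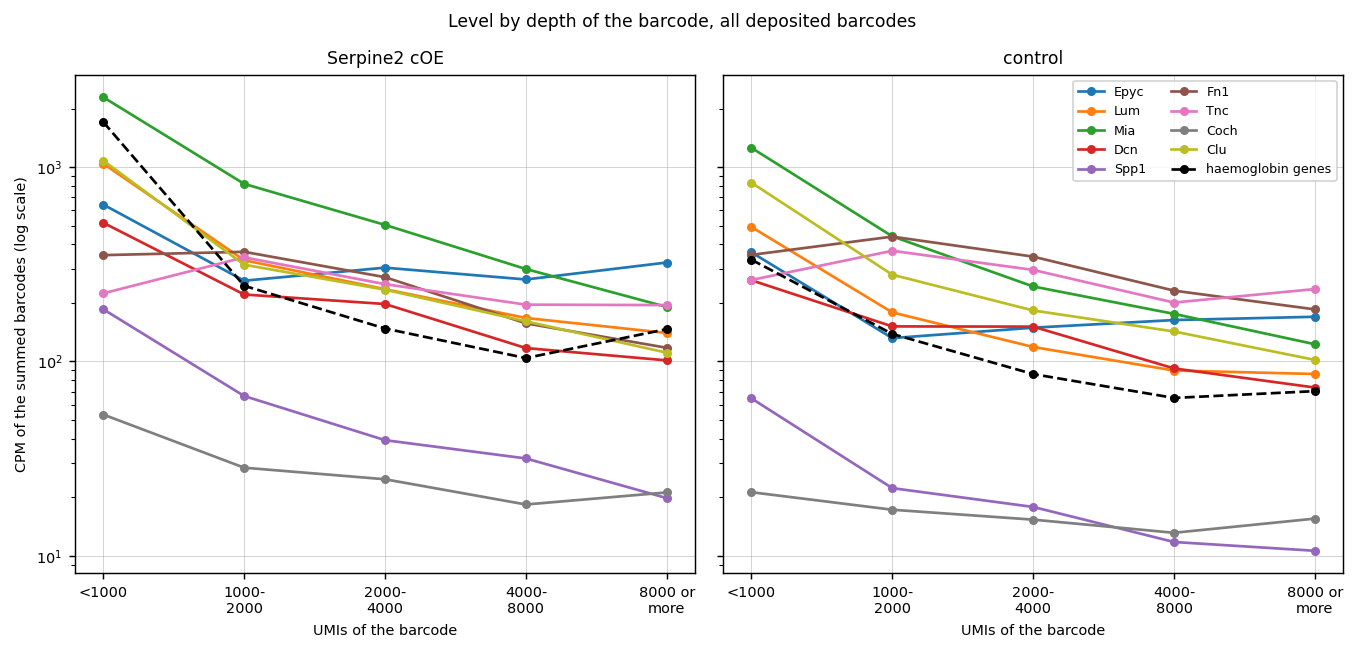
Level of the 9 genes and of the haemoglobin genes (dashed) in all deposited barcodes grouped by their total UMIs, in CPM on a log axis, for Serpine2 cOE (left) and control (right). Mia falls from the shallowest to the deepest barcodes by 12.0-fold in Serpine2 cOE and 10.3-fold in control, and haemoglobin by 11.6-fold in Serpine2 cOE and 4.75-fold in control, whereas Tnc changes by 1.15-fold in Serpine2 cOE and 1.11-fold in control.

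The comparison of Serpine2 cOE with control was made within each class as the log2 ratio of CPM, for genes with at least 50 UMIs over both libraries, and a ratio past 1.5-fold was counted. In Notum and Nkd1 nuclei, 5 of 9 members were past 1.5-fold higher in Serpine2 cOE, where 4.38% of all genes tested were. In macrophage-like nuclei it was 5 of 7, against 14.7% of all genes, in Gas2l3, Tnfaip6 and Ano4 nuclei 5 of 8 against 3.97%, and in Runx2, Dio2 and Ibsp nuclei 6 of 9 against 10.2%. Hair cell-like nuclei had 4 of 8 against 4.15%, pillar and Deiters cell-like nuclei 4 of 7 against 5.87%, roof epithelium-like nuclei 4 of 8 against 5.18%, and Opcml and Moxd1 nuclei 4 of 7 against 6.5%. Fewest were past it in Otoa and Rspo2 nuclei, with 2 of 7 against 10.2%, in lateral epithelium-like nuclei, with 2 of 7 against 6.95%, in Col6a6 and Aldh1a2 nuclei, with 2 of 7 against 5.01%, and in Koelliker organ-like nuclei, with 1 of 8 against 5.25%. Over all kept nuclei 4 of 9 were higher against 3.89%, and their median log2 ratio was 0.51 against 0.01 for all genes tested. The lower direction held 1 member, Tnc, in pillar and Deiters cell-like nuclei (background 5.22%), roof epithelium-like nuclei (5.11%) and Opcml and Moxd1 nuclei (6.67%), and none elsewhere. The lower background there was 3.86% in hair cell-like and 3.86% in Koelliker organ-like nuclei, 7.24% in Otoa and Rspo2, 4.99% in lateral epithelium-like, 2.72% in Notum and Nkd1, 4.76% in Col6a6 and Aldh1a2, 4.06% in Gas2l3, Tnfaip6 and Ano4, 9.21% in Runx2, Dio2 and Ibsp and 14.1% in macrophage-like nuclei, and 4.48% over all kept nuclei, where it held 0 of 9 members. The members were chosen with these libraries in view, so the shares describe them and test nothing.

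The members differed in how many classes took part. Lum was higher in Serpine2 cOE in 12 of 12 classes, past 1.5-fold in 10, with a median log2 ratio of 0.95 and a highest value of 1.26 (0.81 to 1.71) in macrophage-like nuclei. Mia was higher in 11 of 12, past 1.5-fold in 9, with a median of 0.95 and a highest value of 1.53 in Opcml and Moxd1 nuclei. Spp1 was past 1.5-fold in each of the 6 classes with enough UMIs, at log2 ratios of 0.94 to 2.22, but 1 of them, Runx2, Dio2 and Ibsp nuclei, reached 50 UMIs only with its richest nuclei. The filter counts both libraries together, so Serpine2 cOE counts could carry a class past it. Koelliker organ-like nuclei had 47 Spp1 UMIs in Serpine2 cOE and 7 in control. Classes short of the filter ran from 0.26 (-1.17 to 1.83) in pillar and Deiters cell-like nuclei to 3.12 (0.53 to 8.47) in Otoa and Rspo2 nuclei. Dcn was past 1.5-fold in 7 of 12, with a median of 0.78, Epyc in 5 of 12, with a median of 0.45, and Clu in 4 of 12, with a median of 0.33.

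The class with the highest level was that with the highest mean CPM of the 2 libraries. The same libraries thus picked the class and gave its ratio, and what follows is a description. For 6 of the 9 members that ratio lay below the median over classes. These were Epyc, Lum, Dcn, Mia (-0.32 against 0.95), Fn1 (-0.41 against -0.11) and Tnc (-0.22 against -0.16). The Tnc interval, -0.31 to -0.12, held that median. For Mia the class ranked 4 in Serpine2 cOE and 1 in control. For Epyc, the log2 ratio was 0.30 (0.09 to 0.52) in Otoa and Rspo2 nuclei and 0.28 (0.10 to 0.46) in lateral epithelium-like nuclei, against 1.22 in hair cell-like, 1.14 in roof epithelium-like, 1.03 in Notum and Nkd1 and 1.02 in macrophage-like nuclei. For Lum, over all depths, it was 0.26 (0.03 to 0.49) in lateral epithelium-like nuclei and 0.21 in Koelliker organ-like nuclei, and 1.20 in hair cell-like nuclei. For Dcn it was 0.20 (-0.02 to 0.42) in Col6a6 and Aldh1a2 nuclei, and 1.26 in Notum and Nkd1 nuclei. The lowest ratios stood elsewhere for Epyc, at -0.08 in Runx2, Dio2 and Ibsp nuclei, and for Dcn, at 0.03 in Otoa and Rspo2 nuclei. Haemoglobin genes were also higher in Serpine2 cOE in all 12 classes, but their ratios did not follow those of Epyc and Lum over the classes. Their gap was narrowest in hair cell-like nuclei, at 62.3 CPM in Serpine2 cOE and 56.4 CPM in control, where Epyc had its highest ratio. They were at 110 CPM in Serpine2 cOE and 48.2 CPM in control in Koelliker organ-like nuclei. In Otoa and Rspo2 nuclei they were at 86.2 CPM in Serpine2 cOE and 43.9 CPM in control. They were at 199 CPM in macrophage-like nuclei of Serpine2 cOE and 110 CPM in those of control. In nuclei of 1500 to 5000 UMIs they were higher in Serpine2 cOE in the other classes but not in hair cell-like nuclei, which had 64.5 CPM (37 UMIs) in Serpine2 cOE and 82.5 CPM (27 UMIs) in control. The mitochondrial share of kept nuclei was 0.394% in Serpine2 cOE and 0.300% in control. The part of free RNA in the higher Epyc, Lum, Mia, Dcn, Spp1 and Clu levels was not tested beyond a subtraction of each library's macrophage-like level. After it the log2 ratio in the class with the highest level turned to -0.50 for Lum and -0.30 for Clu, was 0.074 for Epyc, 0.0014 for Dcn and -3.78 for Mia, and stayed near its value for Spp1, at 1.504, Coch, at 2.23, Fn1, at -0.39, and Tnc, at -0.21. The subtracted levels came from macrophage-like nuclei of all depths, and a subtraction at matched depth was not tested. In nuclei of 1500 to 5000 UMIs, macrophage-like Clu was 258 CPM in Serpine2 cOE and 198 CPM in control. Opcml and Moxd1 nuclei of that depth had Clu at 271 CPM in Serpine2 cOE and 204 CPM in control. The Mia value includes the richest control nucleus, which held most Mia UMIs of its class.

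Fn1 and Tnc were not higher in Serpine2 cOE in their leading class. In Notum and Nkd1 nuclei the log2 ratio was -0.41 (-0.50 to -0.31) for Fn1 and -0.22 (-0.31 to -0.12) for Tnc, both lower in Serpine2 cOE and short of 1.5-fold. No class was past 1.5-fold for Fn1, whose ratios ran from -0.54 in roof epithelium-like nuclei to 0.45 in Runx2, Dio2 and Ibsp nuclei. Tnc ran from -0.72 in pillar and Deiters cell-like nuclei to 0.82 in lateral epithelium-like nuclei and was 0.20 (0.05 to 0.34) in hair cell-like nuclei. Mia was also lower in Otoa and Rspo2 nuclei, at -0.32 (-0.57 to -0.06), but became 0.86 without the richest nucleus of each library.

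Coch in Runx2, Dio2 and Ibsp nuclei had the largest of the members' log2 ratios in their leading classes, 2.05 (1.54 to 2.60). In Notum and Nkd1 nuclei, the only other class with enough UMIs, it was -0.07 (-0.66 to 0.52). Spp1 in the same Runx2, Dio2 and Ibsp nuclei was at 1.47 (0.60 to 2.44), and at 0.72 (-0.48 to 2.04) on 20 UMIs in Serpine2 cOE and 9 in control without the richest nucleus of each library, while Clu in Opcml and Moxd1 nuclei was at 0.70 (0.40 to 1.01). In nuclei of 1500 to 5000 UMIs only, a window chosen after the data were seen, Coch stood at 513 CPM in Serpine2 cOE and 137 CPM in control in the Runx2, Dio2 and Ibsp nuclei, and in the Otoa and Rspo2 nuclei Epyc stood at 1232 CPM in Serpine2 cOE and 799 CPM in control, and Mia at 749 CPM in Serpine2 cOE and 340 CPM in control.

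**Figure D4:**
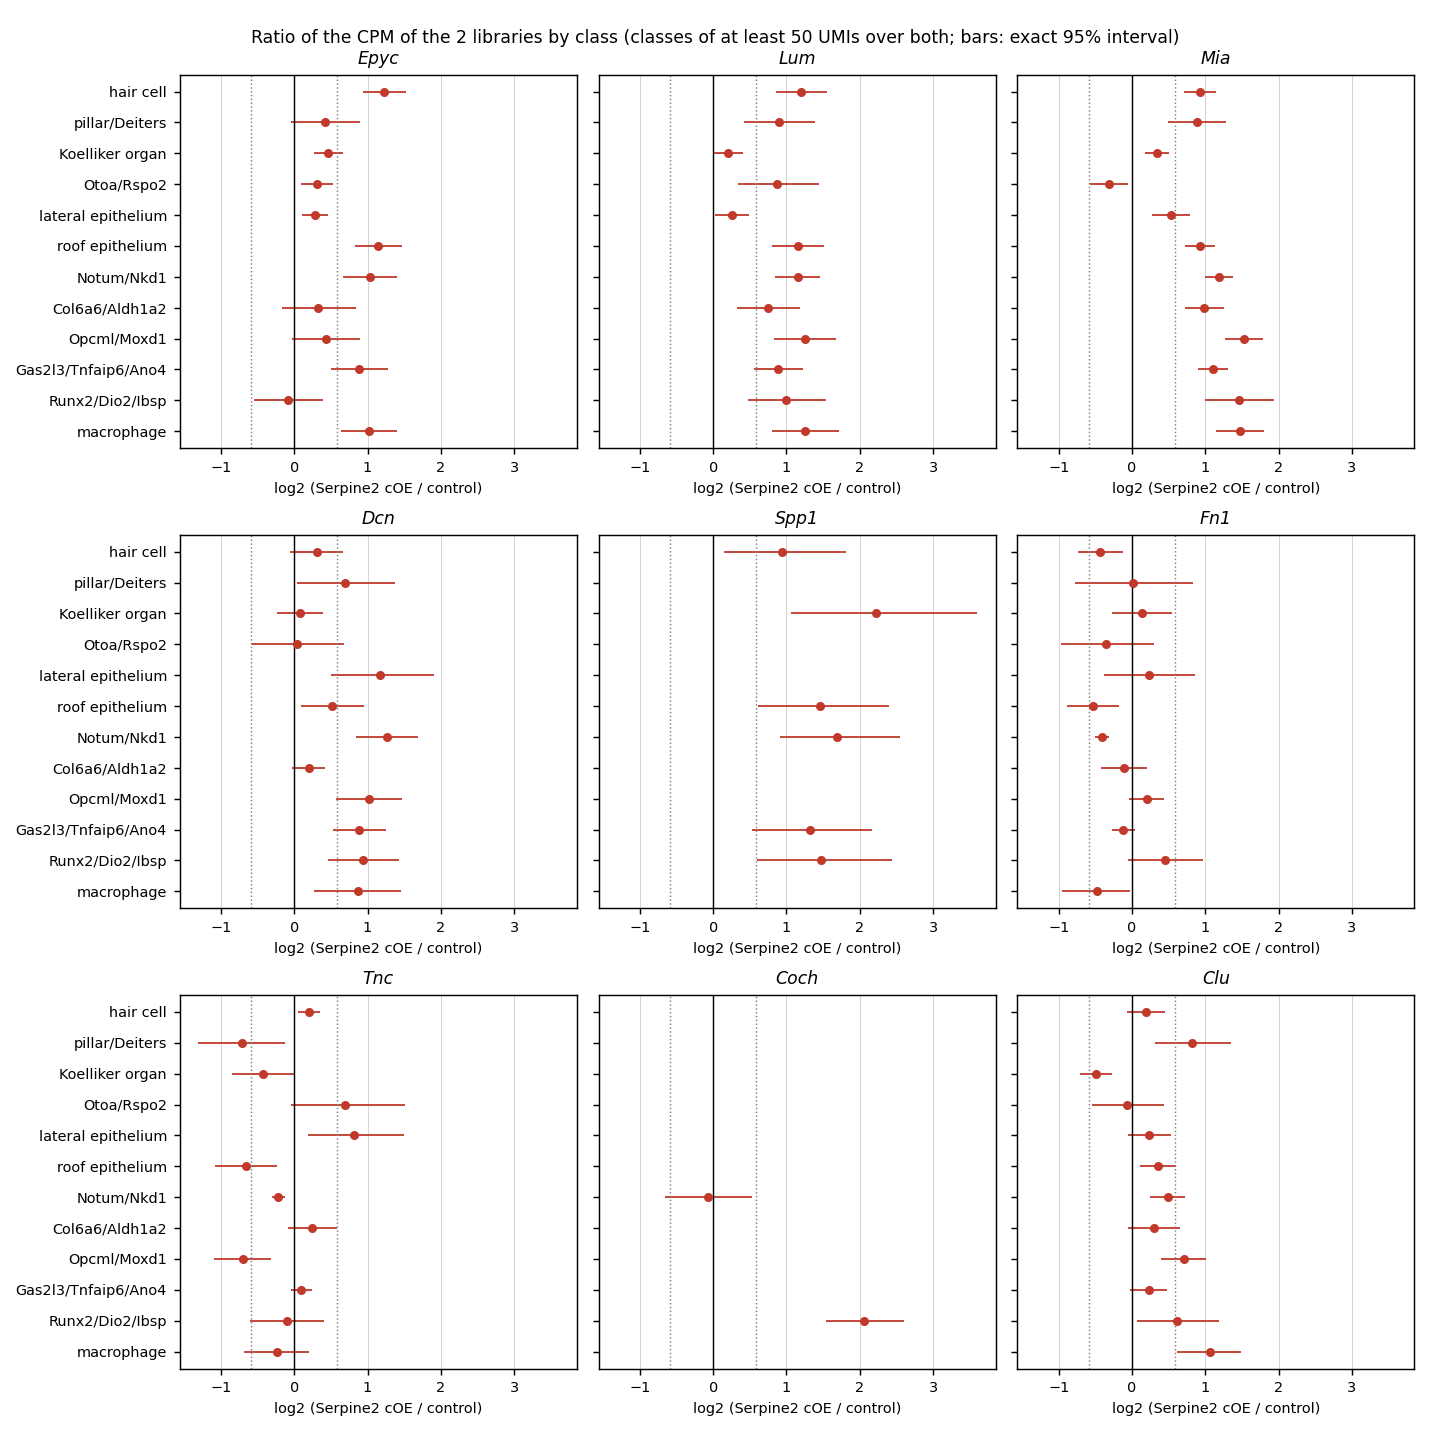
Log2 ratio of CPM in Serpine2 cOE over control for each gene and class with at least 50 UMIs over both libraries, with exact 95% intervals of the counts; dotted lines mark 1.5-fold either way. Lum lies above 0 in 12 of 12 classes and Mia in 11 of 12, Fn1 lies within 1.5-fold throughout, and Coch is at 2.05 in Runx2, Dio2 and Ibsp nuclei.

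Genes with the most similar level across the 12 classes of both libraries (24 points that share libraries and depth, Pearson r of log2(CPM + 10), 14519 genes compared) were found for each member as a description. For Fn1 they were Gabrb1, a subunit of a GABA receptor, with r of 0.98, Epha3, an ephrin receptor, with 0.97, and Aox3 with 0.97. For Tnc they were the overlapping 8030451A03Rik with 0.98, and Dgki, a diacylglycerol kinase, and 1700111E14Rik with 0.92 each. For Coch they were Gdf10, a secreted factor of the TGF-beta family, with 0.93, Gli1, a hedgehog target and effector, with 0.92, and Pth1r, the receptor of parathyroid hormone, with 0.92. For Epyc they were Igsf9b with 0.91, Phyh with 0.90 and Ppif with 0.87. Dcn had Klhl13 with 0.85, the collagen gene Col3a1 with 0.83 and Nppc with 0.82, and Spp1 had Tial1 with 0.84, Snhg3 with 0.80 and the gate marker Ibsp with 0.80. Lum was closest to Vps4b with 0.87, Higd1a with 0.86 and Tmem208 with 0.81, Mia to Ecrg4 with 0.88, Bsg with 0.84 and Tmem59 with 0.81, and Clu to Gm12184 with 0.85, Psmb3 with 0.83 and Ss18l2 with 0.83. Among the members, the closest pair was Fn1 and Tnc at 0.83, followed by Mia and Clu at 0.76 and Epyc and Lum at 0.68, and the most opposed was Epyc and Tnc at -0.54.

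Other matrix genes were taken from lists. Of 15 further small leucine-rich proteoglycans, at most 2 per class had enough UMIs. The most abundant was Bgn, biglycan, which was past 1.5-fold higher in Serpine2 cOE in Opcml and Moxd1 nuclei, where it was at 55.4 CPM in Serpine2 cOE and 29.5 CPM in control, a log2 ratio of 0.91 with an interval from 0.19 to 1.64, and in Gas2l3, Tnfaip6 and Ano4 nuclei, with a log2 ratio of 0.62. It was the 1 gene of the list tested in either class, where 6.5% and 3.97% of all genes were past 1.5-fold higher. Chadl was at 37.5 CPM in Serpine2 cOE and 40.5 CPM in control in Otoa and Rspo2 nuclei. In Runx2, Dio2 and Ibsp nuclei, Ogn was at 44.9 CPM in Serpine2 cOE and 44.4 CPM in control, and Ecm2 at 29.3 CPM in Serpine2 cOE and 23.5 CPM in control. Of 28 further matrix glycoproteins, 4 to 12 per class were tested. The only one past 1.5-fold higher was Postn, periostin, in Gas2l3, Tnfaip6 and Ano4 nuclei, 1 of 12 tested against 3.97% of all genes. Between 0 and 3 per class were lower, the largest number in Col6a6 and Aldh1a2 nuclei with 3 of 11 against 4.76%, Fbln2 and Nid2 among them. It was 2 of 10 against 2.72% in Notum and Nkd1 and 2 of 8 against 6.67% in Opcml and Moxd1 nuclei. Macrophage-like nuclei had 2 of 5 against 14.1%. Koelliker organ-like nuclei had 1 of 6 against 3.86%, and Gas2l3, Tnfaip6 and Ano4 nuclei 1 of 12 against 4.06%. Fbn2, fibrillin 2, was at 1004 CPM in Serpine2 cOE and 985 CPM in control in lateral epithelium-like nuclei, and Sparc at 310 CPM in Serpine2 cOE and 331 CPM in control in pillar and Deiters cell-like nuclei. Sparcl1 was at 443 CPM in Serpine2 cOE and 400 CPM in control in Runx2, Dio2 and Ibsp nuclei, and Fbn1 at 239 CPM in Serpine2 cOE and 224 CPM in control in Col6a6 and Aldh1a2 nuclei.

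Among 9 hyalectans and related proteoglycans, 1 to 5 per class were tested. Spock1, the gene of testican 1, was the most abundant, at 3232 CPM in Serpine2 cOE and 3697 CPM in control in Koelliker organ-like nuclei. It was past 1.5-fold higher in Gas2l3, Tnfaip6 and Ano4 nuclei (1 of 4 of the list tested, against 3.97% of all genes) and in lateral epithelium-like nuclei (1 of 4, against 6.95%). It was past it lower in Col6a6 and Aldh1a2 (1 of 5, against 4.76%), Opcml and Moxd1 (1 of 4, against 6.67%) and Runx2, Dio2 and Ibsp nuclei (2 of 2, against 9.21%, Spock3 being the other). Spock3 in Runx2, Dio2 and Ibsp nuclei was at 78.0 CPM (40 UMIs) in Serpine2 cOE and 308 CPM (118 UMIs) in control. In Opcml and Moxd1 nuclei Spock3 was past 1.5-fold higher (1 of 4, against 6.5%). In Col6a6 and Aldh1a2 nuclei, Spock2 was at 87.6 CPM in Serpine2 cOE and 79.0 CPM in control, and Hspg2, perlecan, at 62.9 CPM in Serpine2 cOE and 77.8 CPM in control. Hspg2 was past 1.5-fold lower in lateral epithelium-like (1 of 4, against 4.99%) and Notum and Nkd1 nuclei (1 of 4, against 2.72%). Of 14 receptors of fibronectin, osteopontin, tenascin and clusterin, 5 to 11 per class were tested. In lateral epithelium-like nuclei 3 of 9 were past 1.5-fold higher, against 6.95% of all genes, in Opcml and Moxd1 nuclei 2 of 7, against 6.5%, and in macrophage-like nuclei 2 of 8 were past it lower, against 14.1%. Elsewhere at most 1 per class was past it in either direction. Itga8, an integrin subunit that binds fibronectin and osteopontin, was at 1507 CPM in Serpine2 cOE and 1756 CPM in control in Opcml and Moxd1 nuclei, and at 1427 CPM in Serpine2 cOE and 1455 CPM in control in Col6a6 and Aldh1a2 nuclei. Lrp2, megalin, which takes up clusterin, was at 1503 CPM in Serpine2 cOE and 1442 CPM in control in roof epithelium-like nuclei. Itga9, which binds tenascin-C, was at 485 CPM in Serpine2 cOE and 584 CPM in control in lateral epithelium-like nuclei, and Itgb1 at 205 CPM in Serpine2 cOE and 167 CPM in control in Runx2, Dio2 and Ibsp nuclei.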

How the data were processed

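The authors deposited unnormalized UMI counts by gene and barcode, produced with Cell Ranger 8.0.1 per the file headers, from 10x Chromium 3' libraries sequenced on an Illumina instrument per the labels. Per the submitters' processing notes, STAR was used, in a version not given, and the build is named mm10 there, while the design text names GRCm39. Of 33696 gene identifiers, 33185 were found in GENCODE M39. Barcodes were kept as nuclei from 500 detected genes upwards and up to 5% mitochondrial UMIs. The top Scrublet scores, 0.8% per 1000 barcodes, were removed as doublets (1040 of 10817 in Serpine2 cOE, 703 of 8953 in control), since the tool's own threshold was not usable.

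A gate needed 3 listed markers (2 for lists of at most 5), at least 3 UMIs, 3 times the UMIs due at the nucleus' depth and 1.5 times the next list. The 6 markers found in at least 40% of nuclei were left out, and the Runx2 and Dio2 list was joined with the osteoblast and chondrocyte list. These gate settings were chosen after looking at the data, the last of several tried with the members' levels in view. UMIs were summed per class and library and scaled to 1000000 (CPM). Intervals are 95% Poisson, Clopper-Pearson or exact conditional ones. With 1 library per group, no test was run. A class needed 50 nuclei in each library. A count of 0 allows up to 3 counts, between 1.06 CPM (Serpine2 cOE hair cell-like nuclei) and 10.1 CPM (control Otoa and Rspo2 nuclei). Clusters came from 3000 variable genes without the members, 50 principal components, 15 neighbours and Leiden resolution 1 (28 clusters). The ratio code was tested on simulated data. The tools were scanpy 1.11.5, scipy 1.17.1, edgeR 4.0.16 (TMM factors only) and R 4.3.3.

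The members and lists were chosen with earlier results of these data known. Named genes were the 9 members, the 3 genes most like each, and the 4 most abundant genes of each matrix list, plus genes past 1.5-fold and leading genes of clusters, which were named after their values were seen. Alternatives were other filters, gates, scalings, depths and free RNA subtraction.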

Additional observations from a re-analysis of the deposited data

How the results depend on the processing

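No paired analysis was possible because each group was 1 library. For the log2 ratio of Serpine2 cOE over control in each member's leading class, 103 alternative values were computed, of which 96 kept the sign, 83 moved by less than the counting interval, 19 moved further and 1 changed sign past the call. For the log2 level of the leading class over the other nuclei, 94 of 95 kept the sign and 59 moved by less than the interval. The reported levels over other nuclei were 2.02 for Epyc, 1.12 for Lum, 0.53 for Mia, 1.51 for Dcn, 1.40 for Spp1, 2.34 for Fn1, 2.47 for Tnc, 4.22 for Coch and 0.12 for Clu. Scaling by TMM factors or without the members, mitochondrial and haemoglobin genes moved no value past its interval. The cause of the following moves was not tested, except where UMI numbers are given.

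Ratios moved as follows. With nuclei of at least 200 genes, Epyc was 0.58 and Mia -0.035. With doublets kept, Mia was 0.011. With the stricter gate, which left 64 Epyc UMIs in Serpine2 cOE and 3 in control, Epyc was 1.74, Spp1 3.06 and Coch 3.69. With clusters in place of gates, Epyc was 0.037, Mia 0.16, Tnc -0.050, Coch 1.30 and Clu 0.29. After thinning to 1000 UMIs, Lum was 0.61 and Mia 0.53. Without the richest nucleus of each library, Mia was 0.86. With the macrophage-like level of all depths subtracted, Epyc was 0.074, Lum -0.50 and Mia -3.78, and Clu reversed to -0.30. In nuclei of 1500 to 5000 UMIs, an alternative added after the data were seen, Epyc was 0.62 and Mia 1.14.

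Levels over the other nuclei moved as follows. With at least 200 genes, Epyc was 1.90, Lum 1.00 and Mia 0.31, and with at least 1000 genes Lum was 1.24, Mia 0.73 and Fn1 2.41. With doublets kept, Epyc was 1.74, Dcn 1.39 and Tnc 2.39. With the stricter gate, Mia was -1.18, on 11 UMIs in Serpine2 cOE and 0 in control, and Spp1 1.96. With clusters, Epyc was 2.48, Mia 1.38, Fn1 2.19, Tnc 1.36, Coch 3.87 and Clu 0.44. After thinning, Epyc was 2.36, Dcn 1.27, Fn1 1.98, Tnc 2.41 and Coch 4.49. Without the richest nucleus, Mia was 0.26 and Spp1 0.25. With at least 2000 UMIs, Lum was 1.35, Mia 0.81, Dcn 1.67, Fn1 2.57 and Clu 0.30. In nuclei of 1500 to 5000 UMIs, Epyc was 2.40, Mia 0.71, Dcn 1.32, Spp1 0.63, Fn1 2.10, Tnc 2.54 and Coch 4.81. Without the filter of 50 UMIs, the share of genes past 1.5-fold grew in all 12 classes, in hair cell-like nuclei to 22.8% from 8.01%. The stricter gate gave no Mia ratio, as control had 0 UMIs, and no Dcn, Fn1, Tnc or Clu value, as their classes have too few markers for it, and the subtraction gave no levels. The Fn1 and Dcn ratios kept their sign under every alternative that gave one, and the Lum ratio under all but the subtraction.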
